A study of Mus musculus with 384 samples.

Results

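The dual-specificity phosphatase genes Dusp1, Dusp2, Dusp4, Dusp5 and Dusp6, the Sprouty genes Spry1 and Spry2 and the Spred genes Spred1 and Spred2 were followed in single granulocyte/macrophage progenitors (GMPs) of mouse bone marrow. They are 9 of 46078 gene rows, chosen by name as feedback inhibitors of mitogen-activated protein kinase (MAPK) signalling. The 3 BCR-ABL sets (sets 1, 2 and 4) came from C57Bl/6 mice carrying Scl-tTA and TRE-BCR/ABL, in which the Scl promoter drives a doxycycline-repressed activator of the fusion oncogene. The labels name the single Control set only as control mice, and the genotype of these mice is not given in the sources used here. The protocol lists, for all 4 sets, doxycycline at 20 mg per L in the drinking water, its withdrawal when mice were 5 weeks old and analysis after a further 5 to 6 weeks. Each set has 96 wells with 1 cell each, gated as lineage-negative, c-Kit+, Sca-1-, CD34+ and FcγR+. Whether a set is 1 animal or several is not stated. Bones were crushed or flushed, and the labels do not say which was done for which set.

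BCR-ABL signals through Ras to the kinases Raf, MEK and ERK, and ERK activity in turn switches on genes whose products damp the same route. DUSP proteins remove phosphates from activated MAPKs, Sprouty proteins act upstream between receptors and Raf, and Spred proteins recruit the Ras inactivator neurofibromin to the membrane. In blood progenitors the ERK route takes part in growth, survival and the choice between neutrophil and monocyte fates.

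The promoters of Dusp1, Dusp2 and Dusp5 are shown because these members were at under 0.5 times the Control level in BCR-ABL set 4 and at or above 0.985 times in sets 1 and 2. They are RefSeq sequences on GRCm38.p6, 5′ to 3′ on the gene's strand. Those of Dusp2 and Dusp5 end before the annotated gene start. That of Dusp1 lies within the annotated Dusp1 gene (chr17:26505590-26562128, minus strand), downstream of the start of that span. Dusp1 is read from the minus strand of chr17:26508520-26508722, Dusp2 from the plus strand of chr2:127335909-127336158 and Dusp5 from the plus strand of chr19:53528895-53529108. Capitals mark motif matches.
Dusp1: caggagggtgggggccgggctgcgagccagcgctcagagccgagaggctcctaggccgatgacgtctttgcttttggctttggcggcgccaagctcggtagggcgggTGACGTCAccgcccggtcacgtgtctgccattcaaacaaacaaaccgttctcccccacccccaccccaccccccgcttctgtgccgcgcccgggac
Dusp2: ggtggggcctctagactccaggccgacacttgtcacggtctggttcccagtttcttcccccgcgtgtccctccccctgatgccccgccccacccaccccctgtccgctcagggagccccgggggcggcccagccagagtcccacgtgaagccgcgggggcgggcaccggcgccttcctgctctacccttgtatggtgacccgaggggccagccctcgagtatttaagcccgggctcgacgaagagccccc
Dusp5: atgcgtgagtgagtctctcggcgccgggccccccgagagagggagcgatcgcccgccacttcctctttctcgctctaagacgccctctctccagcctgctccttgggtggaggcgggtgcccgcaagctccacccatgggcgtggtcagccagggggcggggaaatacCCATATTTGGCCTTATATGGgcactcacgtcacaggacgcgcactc
In the 250 bases upstream of each start, 5 motifs were searched on both strands in 8 members with a RefSeq promoter. These were TGACGTCA (the cAMP response element), the CArG box of serum response factor, TGANTCA (AP-1), TTCNNNGAA (STAT) and CCGGAA (ETS). Positions count back from the end of the 250-base window. For Dusp1 and Dusp5 the sequences above show only 203 and 214 bases of it, without the end nearest the start. Dusp1 held TGACGTCA at 143 to 136 bases upstream, as did 1.55% of 32851 mouse promoters. Dusp5 held a pair of adjoining CArG boxes at 82 to 73 and 72 to 63 bases upstream, and 1.47% of promoters held a CArG box. Dusp2, Dusp6, Spry1, Spry2, Spred1 and Spred2 held none of the 5 motifs in these windows. The 3 other motifs, present in 6.75%, 7.02% and 12% of promoters in the order named, matched no member.

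Of 384 wells, 323 passed limits of 50000 gene reads and 1000 detected genes and were kept. These were 76, 61 and 92 cells in BCR-ABL sets 1, 2 and 4 and 94 in the Control set, and the sums over kept cells held 121378632 to 140995697 gene reads. Counts were summed per set and expressed as reads per 1e6 gene reads (CPM), so that fewer cells making a transcript and less transcript per cell cannot be told apart in a sum. The sums held the GMP transcript Mpo at 28649 to 31626 CPM and summed lymphoid markers at under 0.5 CPM in all 4 sets. Cd34, which was used in the sort, ranged over 146 to 180 CPM in BCR-ABL GMPs and stood at 440 CPM in Control GMPs. Set 4 stood apart before any feedback gene was read. Its summed immediate early genes (13 genes such as Fos and Jun, which are switched on within minutes by signalling or by cell handling) came to 554 CPM, against 1870 and 2293 CPM in sets 1 and 2 and 1804 CPM in the Control set. Its 3 eosinophil markers summed to 1255 CPM, against 0.571 to 5.46 CPM elsewhere. Xist was at 324 CPM in set 1 and 461 CPM in the Control set, and at 0 and 0.156 CPM in sets 2 and 4, so sets also differ in the sex of their donors.

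None of the 9 genes passed the test between BCR-ABL and Control GMPs. The edgeR quasi-likelihood test with Benjamini-Hochberg adjustment called 0 of 8 members tested, against a background of 0% (0 of 20324 genes tested). At an unadjusted p under 0.05 it took 0 of 8 members, against 7.18% of all genes. DESeq2 called 0 of 8 members and 2.77% of all genes, and limma called 0 of both. Limma gave an unadjusted p under 0.05 to 1 member, Spry1 (adjusted p = 0.609), and to 8.16% of all genes. The median log2 fold change of the 8 members was -0.30, with 2 positive and 6 negative, while the median of all genes was 0.05 and 54.2% were positive. All 3 BCR-ABL sets lay below the Control set for 4 of 8 members (Dusp6, Spry1, Spred1 and Spred2), against 27.8% of all genes. All 3 lay above it for 1 member, Spry2, against 23.2% of all genes. With 1 Control set, p-values rest only on spread between the BCR-ABL sets, which may be technical, and the lone Control sum is taken to vary as they do. That spread is estimated for each gene with weight from all genes tested, so it is not a member's own spread alone.

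Levels can be compared between genes once divided by exon length. On that scale (CPM per kb) Dusp1 and Dusp2 led, at 88.5 ± 56.3 and 62.2 ± 23.7 in BCR-ABL GMPs (SD, n = 3) and at 51.6 and 74 in Control GMPs. Their order is opposite in the groups, and within BCR-ABL their difference is smaller than the spread between sets. Dusp6 followed with 8.50 ± 2.01 CPM per kb in BCR-ABL and 13 in Control, and Spry2 with 6.97 ± 0.56 in BCR-ABL and 5.81 in Control. In set 4 Spry2 lay above Dusp6, at 7.47 and 6.69 CPM per kb, so this pair too has no fixed order. Spred1 (1.31 ± 0.228), Spred2 (1.05 ± 0.0758), Dusp5 (0.890 ± 0.439) and Spry1 (0.708 ± 0.167) formed a low group in BCR-ABL. In Control GMPs these 4 genes ran from 1.13 for Dusp5 to 1.62 for Spred1.

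**Figure D1:**
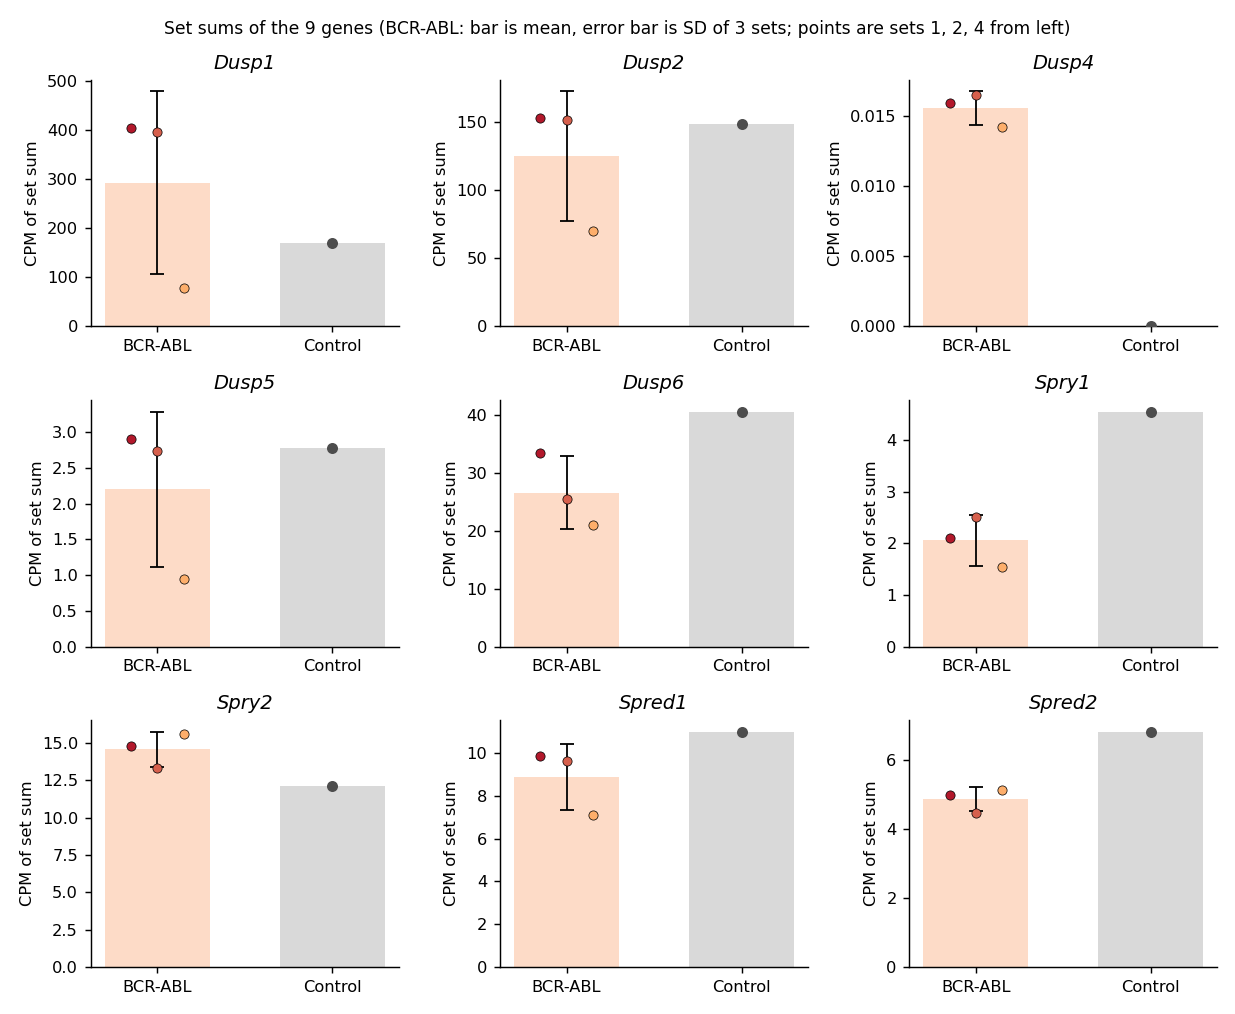
Level of each of the 9 genes, in CPM of the summed counts of a set (y axes differ between panels). Bars give the mean of the 3 BCR-ABL sets with its SD, and the single Control value. Dusp1, Dusp2 and Dusp5 have 1 low point, set 4, while for Dusp6, Spry1, Spred1 and Spred2 all 3 BCR-ABL points lie under the Control bar. Dusp4 rests on 2 reads per BCR-ABL set.

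Dusp1 (MKP-1) is a nuclear phosphatase that acts on p38, JNK and ERK. It had the highest mean of all members in BCR-ABL GMPs and was the least steady. In set 4 it lay below Dusp2, at 23.5 against 34.8 CPM per kb. Dusp1 (ENSMUSG00000024190, mm10 chr17:26505590-26562128, minus strand) had 405, 396 and 77.8 CPM in BCR-ABL sets 1, 2 and 4, against 171 CPM in the Control set. Sets 1 and 2 stood at 2.37 and 2.32 times the Control value and set 4 at 0.456 times, so the groups overlap. The log2 fold change was 0.81 (SE 1.0, edgeR adjusted p = 0.927). Without set 4 it was 1.26 (SE 0.10, edgeR adjusted p = 0.570), which did not pass either. An annotated exon of Ergic1 on the opposite strand shares 11 bases, or 0.332%, of the Dusp1 exons.

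Dusp2 (PAC-1, an inducible nuclear phosphatase of blood cells) had 153, 151 and 69.8 CPM in BCR-ABL sets 1, 2 and 4, against 148 CPM in the Control set. Sets 1 and 2 lay within 1.03 times the Control value, and set 4 was at 0.471 times. The log2 fold change of Dusp2 (ENSMUSG00000027368, chr2:127336159-127338376, plus strand) was -0.22 (SE 0.50, edgeR adjusted p = 0.977). Leaving out set 4 turned its sign, to 0.07 (SE 0.11, edgeR adjusted p = 0.920).

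Dusp5 (ENSMUSG00000034765, chr19:53529109-53542431, plus strand), a nuclear phosphatase specific for ERK, had 2.91, 2.74 and 0.95 CPM in BCR-ABL sets 1, 2 and 4, against 2.78 CPM in the Control set. Set 4 was again the low one and the other 2 sets lay on either side of Control. Its log2 fold change was -0.31 (SE 0.80, edgeR adjusted p = 0.983), and 0.05 (SE 0.48, edgeR adjusted p = 0.994) without set 4. A single cell held 26.4%, 33.3% and 45.5% of the Dusp5 reads in sets 1, 2 and 4 and 39.6% in the Control set. An antisense gene covers 22.1% of the Dusp5 exons, and without a stated strand setting reads there cannot be told apart.

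Dusp4 (MKP-2, ENSMUSG00000031530, chr8:34807297-34819894, plus strand), another nuclear phosphatase, had 2, 2 and 2 reads in BCR-ABL sets 1, 2 and 4 and 0 reads in the Control set. The Control count allows a level of up to 0.0215 CPM (3 reads), which is above the 0.0142 to 0.0165 CPM of the BCR-ABL sets. No difference was detectable at this depth, and the gene was too low to test.

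Dusp6 (MKP-3), the cytoplasmic ERK phosphatase, was lower in every BCR-ABL set than in the Control set without passing the test. Dusp6 (ENSMUSG00000019960, chr10:99263231-99267489, plus strand) had 33.4, 25.5 and 21 CPM in BCR-ABL sets 1, 2 and 4, against 40.6 CPM in the Control set. The 3 sets were at 0.822, 0.628 and 0.516 times the Control value. Of all genes, 27.8% likewise had all 3 BCR-ABL sets below Control. The log2 fold change was -0.59 (SE 0.33, edgeR adjusted p = 0.790). Set 1, the highest, lay nearer to Control than to set 4.

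Spry1 (ENSMUSG00000037211, chr3:37639947-37644598, plus strand), which blocks growth factor signals to Ras and Raf, had the largest fold change of the 8 members tested over all sets, though not without set 4, where Spry1 was at -0.95 and Dusp1 at 1.26 on the log2 scale. Spry1 had 2.10, 2.52 and 1.55 CPM in BCR-ABL sets 1, 2 and 4, against 4.55 CPM in the Control set. All 3 BCR-ABL sets thus lay below Control, as they did for 27.8% of all genes. The log2 fold change was -1.12 (SE 0.50, edgeR adjusted p = 0.745). These levels rest on 265, 306 and 219 reads in BCR-ABL sets 1, 2 and 4, against 636 in Control, and a single cell gave 26% to 38.6% of them. An antisense predicted gene covers 24.4% of the Spry1 exons, where reads cannot be assigned to one of the strands.

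Spry2 (ENSMUSG00000022114, chr14:105891947-105896819, minus strand), the more abundant Sprouty, had 14.8, 13.3 and 15.6 CPM in BCR-ABL sets 1, 2 and 4, against 12.1 CPM in the Control set. All 3 sets lay above Control, as they did for 23.2% of all genes, and set 4 was here the highest. The log2 fold change was 0.28 (SE 0.27, edgeR adjusted p = 0.876) and did not pass. This SE draws on the spread of all genes tested, not on the 3 Spry2 values alone.

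Spred1 (ENSMUSG00000027351, chr2:117121374-117182279, plus strand), the neurofibromin partner mutated in human Legius syndrome, had 9.89, 9.66 and 7.11 CPM in BCR-ABL sets 1, 2 and 4, against 11.0 CPM in the Control set. Its log2 fold change was -0.28 (SE 0.36, edgeR adjusted p = 0.930), and -0.14 (SE 0.29) without set 4. Spred2 (ENSMUSG00000045671, chr11:19924375-20024026, plus strand), its close relative, had 4.99, 4.47 and 5.13 CPM in the same BCR-ABL order, against 6.82 CPM in Control GMPs. Spred2 was steadier across the BCR-ABL sets, and its log2 fold change was -0.47 (SE 0.35, edgeR adjusted p = 0.835). Both Spred genes lay below Control in all 3 BCR-ABL sets, as did 27.8% of all genes, and neither passed.

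The set sums hide how unevenly single cells carried these transcripts. Per kept cell, the median of Dusp1 was 235, 151 and 13.3 CPM in BCR-ABL sets 1, 2 and 4, against 59.8 CPM in the Control set, with maxima of 2285, 2269 and 2522 CPM in the BCR-ABL sets and 3788 CPM in the Control set. In set 4 the maximum came from 1 cell below the depth used for matching, and its next cell was at 1046 CPM, so both its median and nearly all of its upper range were low. Dusp2 had medians of 78.6, 67.6 and 48.8 CPM in BCR-ABL and 88.4 CPM in Control cells. Dusp6 was split, with medians of 0.757, 0.575 and 0 CPM in BCR-ABL and 2.50 CPM in Control cells beside maxima of 629, 254 and 180 CPM in BCR-ABL and 356 CPM in Control cells. Spry2 was spread evenly, with medians of 11.2, 10.1 and 13.7 CPM in BCR-ABL and 9.58 CPM in Control cells.

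**Figure D2:**
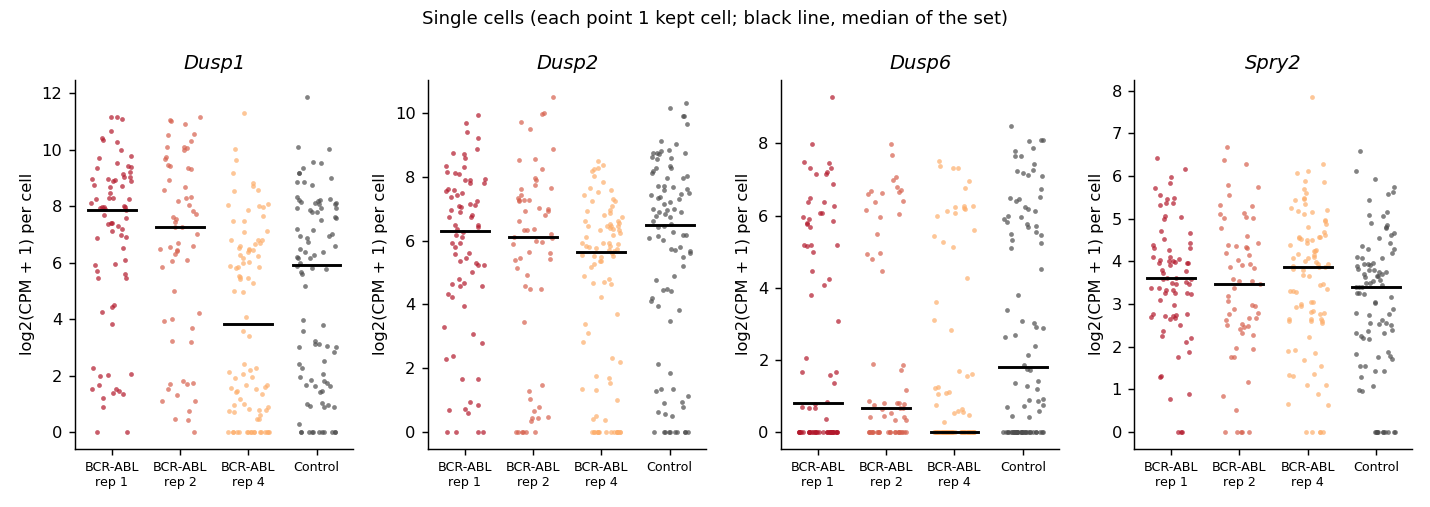
Dusp1, Dusp2, Dusp6 and Spry2 in each kept cell, as log2(CPM + 1), with 1 point per cell and a black line at the median of the set. Dusp6 falls into many cells at or near 0 and a separate band of cells well above, while Spry2 is found at a moderate level in most cells.

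To compare shares of cells, each cell was thinned to 674952 reads, which kept 65, 54 and 81 cells of BCR-ABL sets 1, 2 and 4 and 90 of the Control set. With 1 Control set against 3, an exact permutation test cannot go below p = 0.25, so shares are given with exact 95% intervals that cover counting error only. Dusp1 reached 10 reads in 81.5% (interval 70 to 90.1), 79.6% (66.5 to 89.4) and 50.6% (39.3 to 61.9) of BCR-ABL cells of sets 1, 2 and 4. In Control cells the share was 58.9% (48 to 69.2). Sets 1 and 2 lay above the Control share and set 4 below it. Without thinning the shares were 77.6%, 75.4% and 51.1% in BCR-ABL and 62.8% in Control. Among cells that reached 10 reads, the median thinned level of Dusp1 was 299, 271 and 83 CPM in BCR-ABL and 212 CPM in Control cells, so set 4 was low in both share and level.

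Dusp2 reached 10 reads in 76.1% ± 8.4 of cells in the BCR-ABL sets (SD, n = 3), against 73.3% in the Control set, a difference smaller than the spread. Dusp6 reached 1 read in 34 of 65 (52.3%), 25 of 54 (46.3%) and 26 of 81 (32.1%) BCR-ABL cells of sets 1, 2 and 4. In the Control set 54 of 90 cells did (interval 49.1% to 70.2%). It reached 10 reads in 26 of 65, 19 of 54 and 17 of 81 cells of the BCR-ABL sets and in 37 of 90 cells (41.1%) of the Control set. Without thinning the shares with a Dusp6 read were 56.6%, 63.9% and 40.2% in BCR-ABL and 66% in Control. In cells with 10 reads its median level was 60.7, 97.8 and 74.1 CPM in BCR-ABL and 84.5 CPM in Control, with overlapping groups. In set 4 the low Dusp6 sum therefore went with a small share of cells that carried it.

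Spry2 reached 10 reads in 26 of 65 (interval 28% to 52.9%), 22 of 54 (27.6% to 55%) and 38 of 81 (35.7% to 58.3%) BCR-ABL cells, against 28.9% (19.8 to 39.4) of Control cells. All 3 BCR-ABL shares lay above the upper bound of the Control interval, though the lower bounds of the BCR-ABL intervals lay within it. Unthinned, the Spry2 shares were 71.1%, 72.1% and 69.6% in BCR-ABL and 56.4% in Control. At 1 thinned read they were 98.5%, 88.9% and 92.6% in BCR-ABL and 86.7% (77.9 to 92.9) in Control, whose interval holds the shares of sets 2 and 4. How many of all genes have all 3 BCR-ABL shares on 1 side of Control was not counted. Spred2 reached 10 reads in 12.5% ± 0.4 of BCR-ABL cells (SD, n = 3) and in 18 of 90 Control cells (interval 12.3% to 29.8%). Without thinning the order was not kept, at 23.7%, 31.1% and 23.9% in BCR-ABL and 25.5% in Control, and at 1 thinned read set 1 (55.4%) also lay above Control (53.3%). Spred1 stood at 20.8% ± 3.7 in BCR-ABL and 17.8% in Control cells by the same measure, a difference within the spread. Spry1 stood at 6.6% ± 0.7 in BCR-ABL cells and 9 of 90 Control cells, and Dusp5 at 5.9% ± 4.2 in BCR-ABL and 4.4% in Control cells. Dusp4 was seen in 0 of 65, 0 of 54 and 0 of 81 thinned BCR-ABL cells and 0 of 90 Control cells, which by the limit of 3 counts allows shares of cells with a read of up to 4.62%, 5.56% and 3.70% in BCR-ABL and 3.33% in Control. The exact intervals of these shares reach 5.5%, 6.6% and 4.5% in BCR-ABL and 4% in Control.

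**Figure D3:**
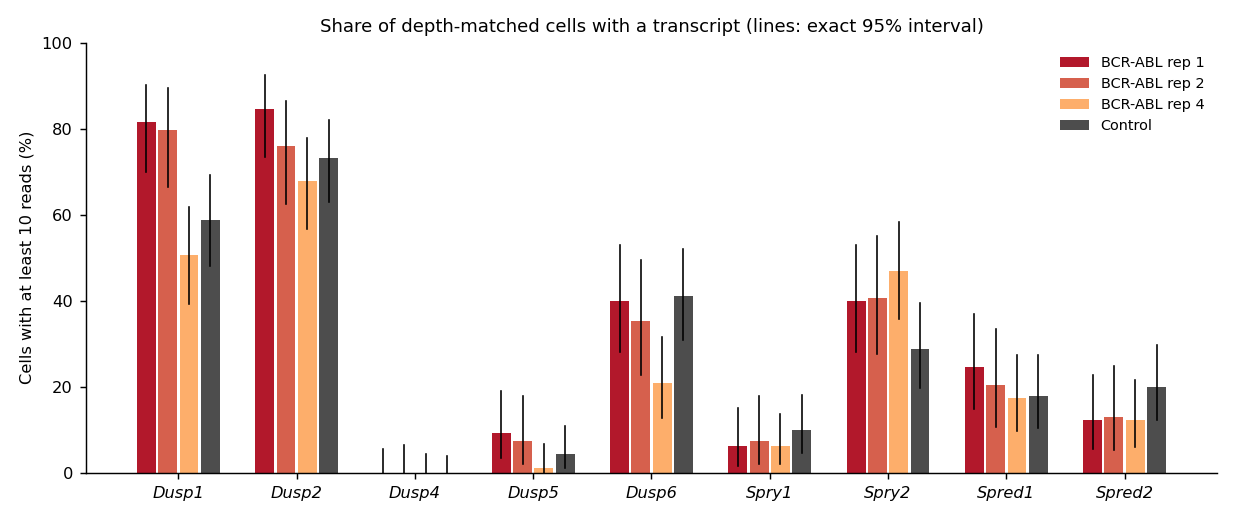
Share of depth-matched cells, in percent, with at least 10 reads of each gene, for BCR-ABL sets 1, 2 and 4 and the Control set, with exact 95% intervals. Spry2 is higher and Spred2 lower than Control in all 3 BCR-ABL sets (for Spred2 not without thinning), and Dusp1 is split between sets 1 and 2 above Control and set 4 below it. How often all genes show such an order of shares was not counted.

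The low Dusp1, Dusp2 and Dusp5 of set 4 went with low immediate early transcripts. Fos, a subunit of the AP-1 factor, had 697, 849 and 164 CPM in BCR-ABL sets 1, 2 and 4, against 582 CPM in the Control set. Zfp36, an RNA-binding protein that destabilises messages, had 203, 167 and 35.5 CPM in BCR-ABL, against 172 CPM in the Control set. Set 4 was the lowest of the 4 sets in each of 8 such genes examined (Fos, Jun, Junb, Fosb, Zfp36, Btg2, Ier2 and Ier3, chosen with these values known). Dusp6, Spred1 and Spry1 were also lowest in set 4, while Spry2 and Spred2 were highest there among the BCR-ABL sets. The part of cell handling in these values was not tested.

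Set against each of the same 8 early genes, Dusp1 gave a ratio above Control for 8 genes in set 1, 8 in set 2 and 6 in set 4. The 8 ratios share 1 numerator and are not separate results. In sets 1 and 2 Dusp1 was at 2.37 and 2.32 times Control and no early gene was above 2.01 times. The counts of 8 there thus follow from those values. The ratio of Dusp1 to Fos was 0.581, 0.467 and 0.476 in BCR-ABL sets 1, 2 and 4, against 0.293 in the Control set. The ratio of Dusp1 to Zfp36 was 2.00, 2.38 and 2.19 in BCR-ABL, against 0.996 in Control, and that to the summed list was 0.217, 0.173 and 0.140 in BCR-ABL, against 0.0947 in Control. Set 4 lay below Control on the other 2 genes. Dusp1 to Ier2 was 1.5, 1.41 and 0.585 in BCR-ABL, against 0.662 in Control, and Dusp1 to Ier3 was 4.93, 5.40 and 3.34 in BCR-ABL, against 3.83 in Control. Dusp2 to Fos was 0.220, 0.178 and 0.427 in BCR-ABL and 0.255 in Control, so its groups overlap, and all 3 BCR-ABL sets lay above Control for 0 of the 8 genes. These ratios were chosen after the values had been seen and carry no test.

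**Figure D4:**
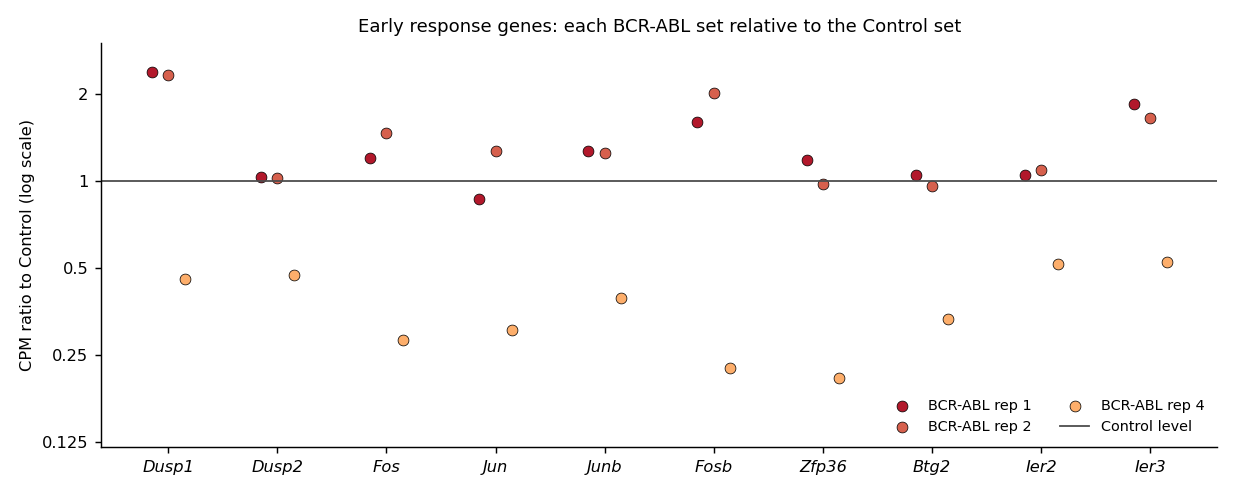
CPM of each BCR-ABL set divided by that of the Control set, on a log axis, for Dusp1, Dusp2 and 8 early genes. Points of set 4 lie under the Control line for all 10 genes, and those of sets 1 and 2 lie near or above 1, highest for Dusp1 at 2.37 and 2.32.

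In single cells, Dusp1 went with Fos and Jun in every set, and with other early genes only weakly in set 4. Over thinned cells its Spearman rho with Fos was 0.53, 0.71 and 0.36 in BCR-ABL sets 1, 2 and 4 and 0.52 in the Control set. In set 4 it was 0.40 with Jun, but 0.20 with Ier2, 0.19 with Zfp36, 0.14 with Junb and 0.05 with Btg2. Ranked over 8981 genes by the mean rho of the 4 sets, Fos (0.53), Fosb (0.46) and Jun (0.44) were the genes most like Dusp1. A score of the immediate early list was taken as the mean log2(CPM + 1) of its genes in each cell. With this score the rho of Dusp1 was 0.52, 0.58 and 0.34 in BCR-ABL and 0.66 in Control cells. These correlations describe cells of 1 set, which share their mice and processing, over 65, 54, 81 and 90 cells in the same order. Dusp2 was less alike from set to set, at 0.44, 0.27 and -0.04 with the same score in BCR-ABL and 0.18 in Control. Genes most like Dusp2 were Ier3 (0.27), Nedd4 (0.26) and Trim26 (0.26), while the lowest of the 8981 genes, Pdcd10, was at -0.29.

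**Figure D5:**
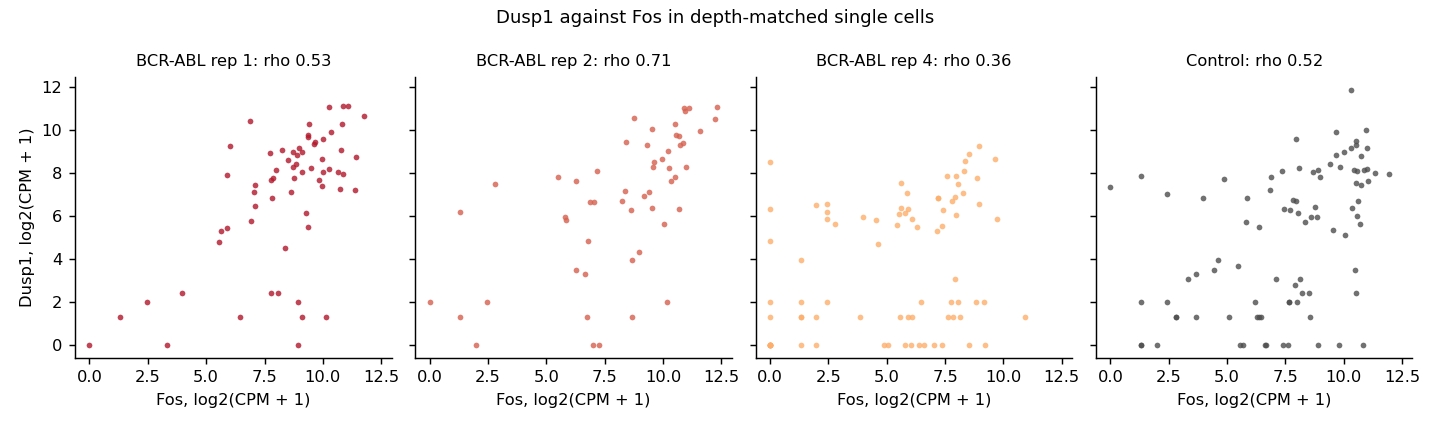
Dusp1 against Fos in depth-matched single cells, both as log2(CPM + 1), with 1 panel per set and 1 point per cell. The Spearman rho is 0.53, 0.71 and 0.36 in BCR-ABL sets 1, 2 and 4 and 0.52 in the Control set, and cells of set 4 are fewer at the upper right.

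Correlations among the feedback genes were weak in single cells. Over the 28 pairs of 8 members (all but Dusp4) the median rho was 0.04, 0.01 and 0.07 in BCR-ABL sets 1, 2 and 4 and 0.04 in the Control set. A rho above 0.3 was seen in 1, 1 and 0 pairs in BCR-ABL and 0 in Control. Dusp1 with Dusp2 gave 0.57, 0.02 and 0.13 in BCR-ABL and 0.24 in Control, and this pair had the highest mean. Cells with 10 reads of both made up 73.8%, 59.3% and 34.6% of BCR-ABL and 45.6% of Control cells, beside 69%, 60.5% and 34.4% in BCR-ABL and 43.2% in Control from the product of the single shares. Dusp6 and Spred1 gave 0.09, 0.08 and 0.13 in BCR-ABL and 0.26 in Control. Weak values such as these, in genes that many cells lack, are no finding.

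The genes most like the other members were not feedback genes. For Spry2 they were Pde4d (mean rho 0.36), mt-Nd6 (0.33) and the cell cycle kinase Cdk6 (0.32), and for Dusp6 they were Pou2f1, Myc and Ybey (0.20 each). For Spred1 they were Irf2bp1 (0.29), Trmt61a (0.26) and Serbp1 (0.25), and for Spred2 they included Bri3bp (0.25) and Ctdnep1 (0.24). These are the top of 8981 ranked genes. At the bottom the lowest mean rho was -0.35 for Spry2, -0.22 for Dusp6, -0.28 for Spred1 and -0.19 for Spred2. Dusp6 with Pou2f1 gave 0.07, 0.35 and 0.38 in BCR-ABL sets 1, 2 and 4 and 0.01 in Control. The ranks carry no test. Dusp4, Dusp5 and Spry1 were found in under 25% of thinned cells and were not ranked.

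Spry2 had weak positive correlations with neutrophil markers in all 4 sets. For 8 neutrophil markers a score was taken as the mean log2(CPM + 1) in each cell. The rho of Spry2 with it was 0.27, 0.33 and 0.35 in BCR-ABL sets 1, 2 and 4 and 0.21 in the Control set. The neutrophil markers themselves summed to 39127, 35832 and 41113 CPM in BCR-ABL, against 27820 CPM in Control, with 8 of 8 positive log2 fold changes. The 8 monocyte markers summed to 817, 1119 and 467 CPM in BCR-ABL, against 2534 CPM in Control, with 0 of 8 positive. Their part in the Spry2 sums was not tested, and Spry2 was read next within cells classed by Irf8, a factor of monocyte fate, and Gfi1, a factor of neutrophil fate, each at 10 reads. Cells with Gfi1 but not Irf8 were 35, 17 and 60 in BCR-ABL sets 1, 2 and 4 and 10 in the Control set, and cells with Irf8 but not Gfi1 were 14, 16 and 1 in BCR-ABL and 50 in Control.

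Spry2 averaged 20.2, 18.8 and 18 thinned CPM in the Gfi1 class of the BCR-ABL sets and 29.2 in that of the Control set. In the Irf8 class it averaged 12.3 and 10.6 in BCR-ABL sets 1 and 2 and 9.51 in Control. The mean of the Gfi1 class was above that of the Irf8 class in each of these 3 sets, although in set 1 the medians of both classes were 11.9. Within the Gfi1 class all 3 BCR-ABL means lay below the mean of the 10 Control cells, the opposite side to the sums. Medians in that class were 11.9, 16.3 and 13.3 in BCR-ABL and 14.8 in Control, where the groups overlap.

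Dusp1 averaged 509, 559 and 75.1 thinned CPM in the Gfi1 class of the BCR-ABL sets, against 144 in Control. In the Irf8 class it averaged 278 and 236 in sets 1 and 2, against 142 in Control, and in cells with both factors 374, 462 and 69.2 in BCR-ABL, against 165 in Control. By means, sets 1 and 2 were above Control and set 4 below it in these classes. In the Gfi1 class the median of set 4 was 36.3, against 8.89 in Control. The few cells with neither factor (3, 3 and 5 in BCR-ABL and 4 in Control) averaged 372, 718 and 45 in BCR-ABL, against 1110 in Control. Dusp6 had no such order, at 22.1, 52.8 and 20.3 in the Gfi1 class of BCR-ABL and 37.3 in Control, and at 55, 29.9 and 6.82 in BCR-ABL cells with both factors and 46.4 in such Control cells. Dusp2 in cells with both factors averaged 159, 129 and 57 in BCR-ABL, against 229 in Control. Class means of Dusp2 in the Gfi1 class were 160, 303 and 78.8 in BCR-ABL and 191 in Control, where the groups overlap.

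No relative of the family passed the test, as none of all 20324 genes did. Of 12 further DUSP, Sprouty and Spred genes in the table, 9 could be tested, 0 passed, and 1 had an unadjusted p under 0.05 on the lower side, against 3.39% of all genes. That gene, Dusp10 (MKP-5, a phosphatase of p38 and JNK), had 2.64, 2.16 and 3.32 CPM in BCR-ABL sets 1, 2 and 4, against 8.24 CPM in the Control set, with a log2 fold change of -1.59 (SE 0.41, edgeR adjusted p = 0.642). Dusp7, an ERK phosphatase, had 5.83, 12.4 and 4.86 CPM in BCR-ABL and 15.3 CPM in Control (log2 fold change -0.97, SE 0.61, edgeR adjusted p = 0.823). Dusp16 had 0.111, 1.46 and 0.518 CPM in BCR-ABL and 0.0787 CPM in Control. Spred3, the third Spred, had 0.484, 0.552 and 0.794 CPM in BCR-ABL and 0.150 CPM in Control. The Control values of Dusp16 and Spred3 rest on only 11 and 21 reads. Dusp3 and Dusp19 had log2 fold changes of -0.26 and -0.02. The median over the 9 genes was -0.29, beside 0.05 over all genes. Spry4, another Sprouty that ERK induces, was at 0.0555, 0.0330 and 0.0355 CPM in BCR-ABL and 0 in Control, too low to test.

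No gene of the kinase route that these genes feed back on passed the test, as none of all 20324 genes did. Of 19 genes from Shc1 to the RSK kinases, 10 had a positive and 9 a negative log2 fold change, with a median of 0.03. An edgeR unadjusted p under 0.05 went to 0 of the 19, against 7.18% of all genes. Sos2, an exchange factor for Ras, had 23.7, 25.1 and 29.2 CPM in BCR-ABL, against 17.7 CPM in Control (log2 fold change 0.57, edgeR adjusted p = 0.723). Map2k1 (MEK1) had 88.8, 104 and 93.5 CPM in BCR-ABL, against 124 CPM in Control (log2 fold change -0.36, edgeR adjusted p = 0.752). Rps6ka3 had a log2 fold change of 0.66 (edgeR adjusted p = 0.780).

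Other inhibitors of the route, 12 tested, had 7 positive and 5 negative values with a median of 0.14. The adaptor Dok2 had 6.17, 5.64 and 13.6 CPM in BCR-ABL, against 3.42 CPM in Control, and Rasal3 had 55.7, 63.5 and 62.3 CPM in BCR-ABL, against 74.7 CPM in Control. The ubiquitin ligase Cbl had a log2 fold change of 0.27 (edgeR adjusted p = 0.831). Of 12 genes of the JNK and p38 routes, 2 had an edgeR unadjusted p under 0.05 on the higher side, against 3.79% of all genes. By edgeR 0 passed, as over all genes, while DESeq2 called Mapk8, beside 2.77% of all genes. Mapk8 (JNK1), a substrate of Dusp1 and Dusp10, had 21.6, 27.6 and 22.8 CPM in BCR-ABL, against 11.8 CPM in Control (log2 fold change 1.04, SE 0.28, edgeR adjusted p = 0.642). Mapk13 (p38 delta) had 22.1, 10.7 and 21 CPM in BCR-ABL, against 6.68 CPM in Control. Map3k5 had a log2 fold change of -0.52 (edgeR adjusted p = 0.825).

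Transcripts that ERK is known to raise had 7 positive and 4 negative values among 11 genes tested, a share near the 54.2% positive of all genes. Their median log2 fold change was 0.43. Of the 11, 2 had an edgeR unadjusted p under 0.05 on the higher side, against 3.79% of all genes. Past the test were 0, as over all genes. Myc had 512, 564 and 506 CPM in BCR-ABL, against 396 CPM in Control (log2 fold change 0.43, SE 0.14, edgeR adjusted p = 0.669). Fosl1, an AP-1 subunit, had 0.809, 1.33 and 1.13 CPM in BCR-ABL, against 0.0931 CPM in Control. Its Control value rests on 13 reads in 1.06% of kept cells, and 6.58%, 8.20% and 4.35% of BCR-ABL cells had a read. Ccnd1, cyclin D1, had 4.06, 13.2 and 10.3 CPM in BCR-ABL, against 3.50 CPM in Control. These 3 genes lay above Control in all 3 BCR-ABL sets, set 4 included, as did 23.2% of all genes, while Dusp1 and Fos did not. Within the immediate early list, 4 of 13 genes had a positive value and the median was -0.15. An edgeR unadjusted p under 0.05 went to 0 of the 13, against 7.18% of all genes. Egr1 ranged widely, at 7.02, 36.8 and 0.582 CPM in BCR-ABL, against 6.64 CPM in Control, while Atf3 stood at a log2 fold change of -2.80 (SE 2.17) and Hspa1b at one of -1.93 (SE 2.49). The 8 genes of the G2/M list, among them Mki67, Top2a and Plk1, had a median of -0.09. Here too 0 had an edgeR unadjusted p under 0.05, against 7.18% of all genes.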

How the data were processed

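The authors deposited whole-number read counts per Ensembl gene for each well, not normalised, from SMART-seq2 cDNA and Nextera XT libraries. Per the submitters' processing notes, reads were handled with GSNAP and HTSeq 0.5.3p3 on mm10. The sources used here do not give the annotation release or the strand setting. Names and positions came from GENCODE vM21 (45143 of 46078 gene rows matched). Of all reads 44.9% lay on genes, and 92 spike-in and 5 summary rows were left out. Reads carry no molecular identifiers, so intervals and floors (3 reads) cover counting error only.

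Wells with at least 50000 gene reads and 1000 genes were kept (50434 to 4758711 reads per cell, median 1483694). Wells were sorted as single cells, and doublets were not called. Counts were summed per set and 3 BCR-ABL sums compared with 1 Control sum by edgeR 4.0.16 (quasi-likelihood F test, TMM, filterByExpr, 2 residual degrees of freedom, biological coefficient of variation 0.68) in R 4.3.3, with Benjamini-Hochberg adjustment over all genes and a threshold of 0.05. The SE printed with an edgeR log2 fold change was derived from the F test, as the absolute log2 fold change divided by the square root of F. Shares use cells thinned to 674952 reads, the 10th percentile of kept cells, and Clopper-Pearson intervals at 95%. Spearman correlations were computed on log2(CPM + 1) within a set. Alternatives were RLE factors, no filter, DESeq2 1.42.0, limma 3.58.1 (voom), a limit of 200000 reads and 2000 genes, thinned or equally weighed cells, each BCR-ABL set left out and the brightest cell of each set left out.

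The members, gene lists and limits were chosen with earlier results of these data known. All members are named, with up to 3 genes of each other list by smallest p, the relatives with a read in 10% of kept cells, and the 3 genes most like each member found in 25% of thinned cells. Values of some of these genes are left out of the text. The 8 early genes and the ratios were chosen after their values were seen. No kept well had the same counts as another kept well.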

Additional observations from a re-analysis of the deposited data

Results flagged for a closer look

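The mean of Spred2 was on opposite sides of Control in 2 classes of cells. In cells with Gfi1 but not Irf8, its mean thinned level was 5.42, 3.75 and 5.09 CPM in BCR-ABL sets 1, 2 and 4, against 14.5 CPM in the Control set, a difference of -9.75 CPM between the BCR-ABL mean and Control. In cells with both factors it was 2.85, 5.02 and 7.90 CPM in BCR-ABL, against 2.51 CPM in Control, a difference of 2.75 CPM. Medians differed less. In the Gfi1 class they were 1.48, 0 and 0 CPM in BCR-ABL and 1.48 CPM in Control, and in cells with both factors 0, 1.48 and 2.96 CPM in BCR-ABL and 0 CPM in Control. The difference between the classes was not tested, and the Control values come from 10 and 26 cells.

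Wells left out for low depth were not empty of Dusp1. Of 61 such wells, with a median of 7299 gene reads, 40 had a Dusp1 read and 4 had at least 10, the highest with 50 reads. Most of the 61 wells came from BCR-ABL sets 1 and 2, which kept 76 and 61 of 96 wells. Set 4 kept 92 and the Control set 94. The reads in left-out wells were not split by set. Dusp2 was read in 27 of the 61 wells and Spry2 in 11, with 0 at 10 reads, and Spry1 in 0.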

How the results depend on the processing

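No alternative put any member past the threshold, and adjusted p ran from 0.570 to 1.0 over 88 member values. Direction was kept in 86 of these. The other 2 came without BCR-ABL replicate 4. Leaving out 1 BCR-ABL set in turn, the log2 fold change of Dusp2 ran from -0.41 to 0.07 and that of Dusp5 from -0.58 to 0.05, the highest being without replicate 4. Dusp1 ran from 0.42 with limma-voom to 1.26 without that set, Spred1 from -0.80 with cells weighed equally to -0.14 without that set, Dusp6 from -0.80 to -0.43, Spry1 from -1.30 to -0.94, Spry2 from 0.24 to 0.45 and Spred2 from -0.66 to -0.41. Over all genes edgeR called 0, and DESeq2 called 562. The cause was not tested. Of 18 alternatives for shares, 15 moved by less than 1 SD. The difference for Spry2 was 13.6 points at 10 reads, against 6.6 at 1 read. Without thinning it was 1.7 points for Dusp4, and for Spred1 -5.5 points, against 2.8 when thinned. No paired analysis was possible because BCR-ABL and Control share fewer than 2 replicate numbers. The lone Control set could not be left out. Depth limits Dusp4 to an upper bound, and Dusp5 and Spry1 to 636 reads per set or fewer.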
